A study of Homo sapiens with 12 samples.

Results

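The colony-stimulating factors CSF1, CSF2 and CSF3 are secreted proteins named for the blood cells that they make grow, and their messenger RNA was followed here across 12 libraries of the human lung fibroblast line IMR90. These 3 genes were taken by name from 48162 Ensembl gene IDs, and all 3 had an ID in every library. The libraries fell into 4 groups of 3, all from cells kept in 2% oxygen and selected for 4 days after viral infection. Control cells carried the empty vector pBABE-Control. RAS cells carried pBABE-HRASG12V, an oncogenic HRAS that drives fibroblasts into senescence, a lasting arrest of division. RAS/shDOT1L cells carried pBABE-HRASG12V together with pLKO.1-shDOT1L, a hairpin RNA against DOT1L, the methyltransferase of lysine 79 of histone H3. DOT1L OE cells carried MSCB-hDot1lwt, which overexpresses DOT1L, without the HRAS vector. The first 3 groups were selected with puromycin at 3 µg/mL and DOT1L OE with blasticidin at 1 µg/mL, so in every comparison with DOT1L OE the drug and the gene cannot be told apart. The study's methods list more than 1 hairpin against DOT1L, and the name pLKO.1-shDOT1L does not tell which was used. The study used a control hairpin against GFP that the sample labels do not mention, and selection was of infected pools.

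CSF1, also called M-CSF, keeps monocytes and macrophages alive and acts through the tyrosine kinase receptor CSF1R. CSF2 (GM-CSF) drives granulocytes and macrophages through a receptor made of CSF2RA and the shared beta chain CSF2RB, and CSF3 (G-CSF) drives neutrophils through CSF3R. Fibroblasts make CSF1 at rest and are known to switch on CSF2 and CSF3 after interleukin 1 or tumour necrosis factor, through NF-kappaB and C/EBP factors at the promoters and through AU-rich elements in the 3′ end of the mRNA that set how fast it decays. Senescent cells release such factors as part of the senescence-associated secretory phenotype (SASP), and the comparisons ask how these ligands moved when RAS was expressed, when DOT1L was knocked down in RAS cells and when DOT1L alone was raised.

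The AU-rich stretches are shown because they are a known control element of these mRNAs. Each line gives the 30 bases of the 3′ untranslated region of the reference transcript (GENCODE 44, GRCh38) that hold the most copies of the pentamer ATTTA, with the pentamers in capitals.
CSF1: tttatataaagtcATTTAaatatctATTTA
CSF2: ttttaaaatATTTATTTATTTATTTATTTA
CSF3: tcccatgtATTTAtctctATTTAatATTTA
The 3′ untranslated region of CSF2 had 318 bases, 8 pentamers and 4 copies of the nonamer ATTTATTTA, and the 5 overlapping pentamers of the stretch shown make up these nonamers. That of CSF3 had 854 bases with 7 pentamers and that of CSF1 had 2154 bases with 4, and both held 0 nonamers. For scale, 45.1% of 19034 reference transcripts had the pentamer and 1.42% the nonamer in their last 300 bases, on the transcript strand. In that window CSF2 held 8 pentamers and 4 nonamers, CSF1 held 3 and 0, and CSF3 held 0 of either. A match is a description of letters and was not tested as a site of decay.

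The promoter of CSF2 is shown because the data below turn on its induction. The RefSeq table for GRCh38.p14 held 1 promoter for CSF2, the 250 bases before its start at chr5:132073539-132073788, plus strand. Other forms of the ETS motif were not searched. In capitals are AGGAAG, a form of the ETS motif, and then the cytokine element CK-1, GAGATTCC.
CSF2: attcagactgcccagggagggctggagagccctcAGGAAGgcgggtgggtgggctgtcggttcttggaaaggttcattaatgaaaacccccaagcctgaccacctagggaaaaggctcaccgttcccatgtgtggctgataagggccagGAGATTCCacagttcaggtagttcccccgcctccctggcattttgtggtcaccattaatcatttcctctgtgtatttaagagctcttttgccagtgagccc
CK-1 lay at bases -101 to -94 and AGGAAG at -216 to -211 from the start, and neither overlapped another motif searched. CK-1 was found in 0.735% and AGGAAG in 28.7% of 35116 promoters of this length, both strands searched. The kappaB motif, searched by name, TGACTCA of AP-1, GGGCGG of the GC box and TATAAA had 0 matches in this window, against 5.21%, 4.20%, 42.6% and 10.7% of promoters in that order. Only exact matches to these motifs were counted, so a site with other letters would be missed. A count of 0 therefore does not show that the promoter lacks such a site. No promoter of CSF1 or CSF3 was analysed here.

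All 3 genes lie on the plus strand, on different chromosomes of GRCh38. CSF1 (ENSG00000184371) spans chromosome 1, 109910242 to 109930992, in 9 exons of its reference transcript. CSF2 (ENSG00000164400) spans chromosome 5, 132073789 to 132076170, in 4 exons. CSF3 (ENSG00000108342) spans chromosome 17, 40015361 to 40017813, in 5 exons. No other annotated gene overlaps any of them, so that reads counted without strand could not be shared with an antisense partner here.

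The libraries held 16128055 to 19503457 counts. Levels below are CPM, counts scaled to a common library size with TMM factors, and changes are log2 fold changes ± standard error (SE) from edgeR's quasi-likelihood test, called at a Benjamini-Hochberg adjusted p under 0.05 over all genes tested. DOT1L checked the labels, at 31.7 CPM (control), 84.5 (RAS), 11.0 (RAS/shDOT1L) and 202 (DOT1L OE), with groups that did not overlap. HRAS, counted from the vector and the genome together, stood at 86.0 CPM (control), 503 (RAS), 276 (RAS/shDOT1L) and 79.4 (DOT1L OE). HRAS thus was lower in RAS/shDOT1L than in RAS (log2 change -0.85, edgeR adjusted p = 3.87e-16), and its part in any difference between these groups was not tested. The summed level of 12 fibroblast markers was 24711 to 25093 CPM in control and 17231 to 19267 in the other groups, with 0 markers undetected in any group. The libraries may be technical replicates, since the sources differ on this, so p-values measure only the spread between these libraries.

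CSF1 was present in every library, fell slightly in RAS and was highest in RAS/shDOT1L. Control libraries 1, 2 and 3 gave 707, 560 and 591 counts, or 36.5, 30.2 and 29.7 CPM. RAS libraries gave 24.0, 24.2 and 22.9 CPM. The RAS libraries therefore all lay below the lowest control library. In bulk RNA, fewer cells making a message and less message per cell cannot be told apart. RAS/shDOT1L libraries gave 59.9, 64.0 and 66.4 CPM, and DOT1L OE libraries gave 49.9, 52.8 and 43.7 CPM. Both groups lay wholly above control, and they did not overlap each other. The order of the means was RAS (23.7 ± 0.67 CPM), control (32.1 ± 3.79), DOT1L OE (48.8 ± 4.64) and RAS/shDOT1L (63.4 ± 3.26; mean ± SD, n = 3), and each neighbour in that order differed by the edgeR test.

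CSF2 was near the limit of detection in control and DOT1L OE and abundant in both groups with RAS. Control libraries held 3, 5 and 12 counts, or 0.155, 0.270 and 0.604 CPM, and DOT1L OE libraries held 11, 7 and 10 counts, or 0.587, 0.327 and 0.468 CPM. These groups overlapped. RAS libraries held 2209, 2279 and 2095 counts, or 132, 138 and 134 CPM, and RAS/shDOT1L libraries held 592, 620 and 557 counts, or 38.6, 38.9 and 35.2 CPM. The order was control and DOT1L OE, which did not differ beyond their spread, then RAS/shDOT1L at 37.6 ± 2.09 CPM, then RAS at 135 ± 3.28 CPM (mean ± SD, n = 3).

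CSF3 went from no counts to one of the more abundant messages. Control libraries held 0, 0 and 0 counts, which allows a group level of up to 0.0519 CPM (3 counts over the group, counting error only). DOT1L OE libraries held 17, 16 and 19 counts, or 0.907, 0.748 and 0.890 CPM, so that every one of them lay above every control library. RAS/shDOT1L libraries held 339, 357 and 356 counts, or 22.1, 22.4 and 22.5 CPM, and RAS libraries held 12759, 12824 and 11510 counts, or 761, 777 and 735 CPM. The 4 groups did not overlap anywhere in the order control, DOT1L OE, RAS/shDOT1L, RAS. By CPM, not scaled for length, CSF3 ranked 206 among 19317 IDs with counts in RAS, 6177 among 20095 in RAS/shDOT1L and 12685 among 21187 in DOT1L OE, while CSF2 ranked 1609, 4552 and 13674 and CSF1 ranked 5984, 3018 and 3762.

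**Figure D1:**
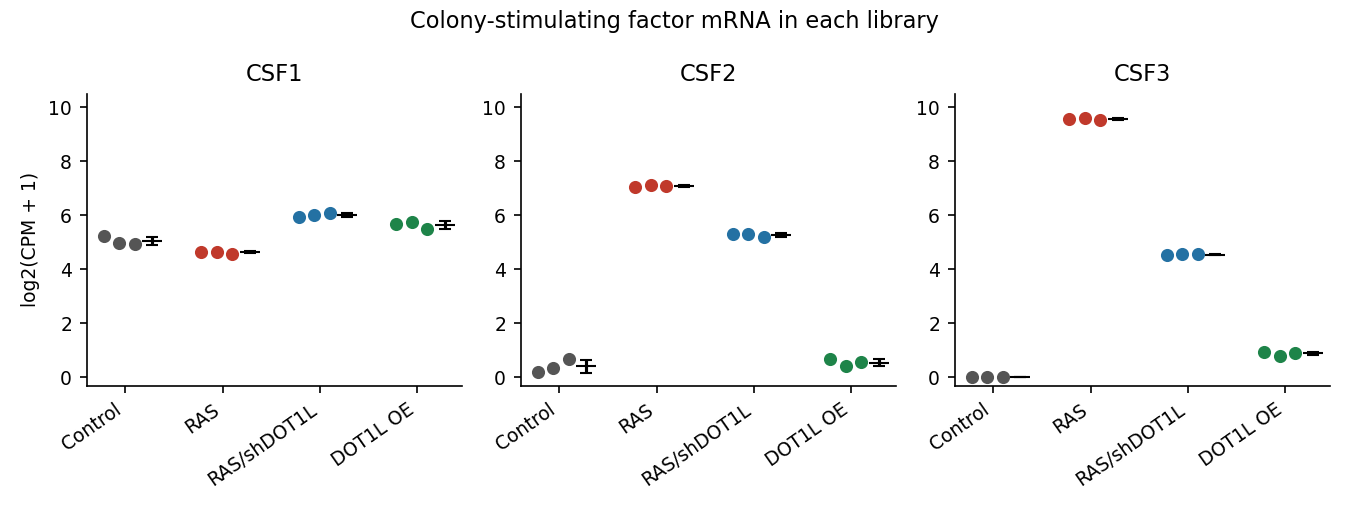
Level of CSF1, CSF2 and CSF3 as log2(CPM + 1) on the vertical axis, with 1 point a library for the 4 groups on the horizontal axis and a bar at the right of each group for the mean ± SD (n = 3). CSF2 and CSF3 are highest in RAS and next in RAS/shDOT1L, while CSF1 is lowest in RAS (22.9 to 24.2 CPM) and highest in RAS/shDOT1L (59.9 to 66.4 CPM).

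Expression of RAS raised CSF2 and CSF3 and lowered CSF1. All 3 members were called changed against control, 2 higher and 1 lower, where 64.0% of 13554 genes tested were called, 31.9% higher and 32.0% lower. CSF2 and CSF3 passed edgeR's filter on low counts through the RAS libraries alone, so their calls cannot be weighed against these shares. CSF3, with 37093 counts over the RAS libraries and 0 over control, was at least 14597-fold higher (edgeR adjusted p = 1.83e-38). CSF2 was 393-fold higher by mean CPM (log2 change 8.57 ± 0.15 SE, edgeR adjusted p = 1.90e-30). The size of the CSF2 change rested on 20 control counts, 12 of them in control library 3, and the log2 change was 9.26 without that library. CSF1 fell by 0.44 ± 0.11 SE on the log2 scale, or 1.36-fold (edgeR adjusted p = 0.0012).

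The size of the small CSF1 difference depended on the scaling. RAS libraries carried a trend with transcript GC content: the median deviation of log2 CPM of the tenth of genes richest in GC less that of the tenth poorest was 0.72 (RAS), -0.50 (control), -0.09 (RAS/shDOT1L) and -0.15 (DOT1L OE). The longest CSF1 transcript had 59.2% GC, that of CSF2 50.3% and that of CSF3 59.9%. With a GC offset in the edgeR fit the log2 change of CSF1 in RAS against control was -0.89 (adjusted p = 6.90e-08). Scaling by library size alone, which shifted the median of all genes by -0.20, gave -0.64. Under that scaling 36.9% of the calls of this comparison were higher, in place of 49.9%.

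In RAS/shDOT1L both induced factors were lower than in RAS, CSF3 by far more than CSF2, and CSF1 was higher. HRAS differed between these groups too (503 CPM in RAS, 276 in RAS/shDOT1L), and the labels name no control hairpin. The parts of DOT1L, the hairpin vector and HRAS in these differences were not tested. All 3 members were called, 1 higher and 2 lower, where 52.7% of 13398 genes were called, 26.3% higher and 26.4% lower. CSF3 was 33.9-fold lower by mean CPM in RAS/shDOT1L than in RAS (log2 change -5.07 ± 0.06 SE, edgeR adjusted p = 5.93e-35). CSF2 was 3.58-fold lower (log2 change -1.82 ± 0.08 SE, edgeR adjusted p = 9.59e-20). CSF1 was 2.68-fold higher (log2 change 1.44 ± 0.10 SE, edgeR adjusted p = 5.14e-14), which took it above control as well as above RAS.

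Expressed as the part of the rise from control to RAS that was still there in RAS/shDOT1L, CSF2 kept 27.7% and CSF3 kept 2.95%. The ratio of CSF3 to CSF2 counts within a library, which no scaling of the library can move, showed the same inequality: its log2 value was 2.46 to 2.53 in the RAS libraries and -0.80 to -0.64 in the RAS/shDOT1L libraries. The mean difference was -3.24, and the groups did not overlap (exact permutation test, two-sided, p = 0.10, the smallest that 3 against 3 allows, and 0.1125 after adjustment over 9 such ratios). The log2 ratio of CSF2 to CSF1 likewise differed by -3.26 and that of CSF3 to CSF1 by -6.50 between these groups, each with the same exact permutation p = 0.10. A trend with GC content does not cancel in such ratios, and CSF3 (59.9% GC) and CSF2 (50.3%) differ in it. Over the alternatives that kept all libraries, the log2 change in RAS/shDOT1L against RAS was -5.08 to -4.72 for CSF3 and -1.84 to -1.75 for CSF2.

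Neither induced factor returned to the control level. Against control, CSF2 was 110-fold higher in RAS/shDOT1L (log2 change 6.74 ± 0.24 SE, edgeR adjusted p = 1.67e-19; 7.43 without control library 3), and CSF3, at 1052 counts against 0, was at least 430-fold higher (edgeR adjusted p = 1.46e-17). CSF1 was 1.97-fold higher (log2 change 0.99 ± 0.10 SE, edgeR adjusted p = 7.40e-10). All 3 members were higher in that comparison, where 55.5% of 13519 genes were called, 27.9% higher and 27.6% lower. CSF2 and CSF3 passed the filter on low counts through RAS/shDOT1L alone, so their calls cannot be weighed against these shares. Scaling by library size alone shifted the median of all genes by -0.12, and 39.97% of its calls were then higher in place of 50.3%.

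DOT1L overexpression without RAS gave small rises of CSF1 and CSF3 and none that could be shown for CSF2. CSF1 was 1.52-fold higher than in control (0.61 ± 0.09 SE on the log2 scale, edgeR adjusted p = 1.08e-06). CSF3, at 52 counts over the group against 0, was at least 16.3-fold higher (edgeR adjusted p = 2.22e-05), at a level of 0.848 ± 0.087 CPM. CSF2 did not pass edgeR's filter on low counts in this comparison, with 28 counts against 20, and its levels of 0.461 ± 0.13 and 0.343 ± 0.23 CPM did not differ beyond the spread (exact permutation test, two-sided, p = 0.50). CSF1 and CSF3 were thus called higher, where 59.9% of 13660 genes were called, 29.9% higher and 29.9% lower. CSF3, at 0 control counts, passed the filter through DOT1L OE alone and could not have been called lower. Its call therefore cannot be weighed against those shares. A CSF2 difference was not detectable at this depth.

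Set against RAS, the CSF3 level in DOT1L OE was 0.112% of the rise from control to RAS. CSF3 was 893-fold higher in RAS than in DOT1L OE (log2 change 9.79 ± 0.08 SE, edgeR adjusted p = 2.07e-24) and CSF2 292-fold higher (log2 change 8.18 ± 0.13 SE, edgeR adjusted p = 3.20e-20), while CSF1 was 2.06-fold lower (log2 change -1.05 ± 0.10 SE, edgeR adjusted p = 1.05e-08). In that comparison 65.6% of 13648 genes were called, 32.3% higher and 33.2% lower, and scaling by library size alone gave a split of 32.1% higher calls in place of 49.3%, with the median of all genes shifted by -0.28. Between RAS/shDOT1L and DOT1L OE, which share neither the RAS vector nor the drug, CSF3 was 26.3-fold and CSF2 81.5-fold higher in RAS/shDOT1L. CSF1 was 1.30-fold higher there (log2 change 0.37 ± 0.09 SE, edgeR adjusted p = 9.03e-04), where 64.6% of 13645 genes were called, 32.2% higher and 32.4% lower. The CSF1 call was lost under library size scaling alone (log2 change 0.18, edgeR adjusted p = 0.073), which shifted the median of all genes by -0.18 and left 38.2% of the calls higher in place of 49.8%.

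**Figure D2:**
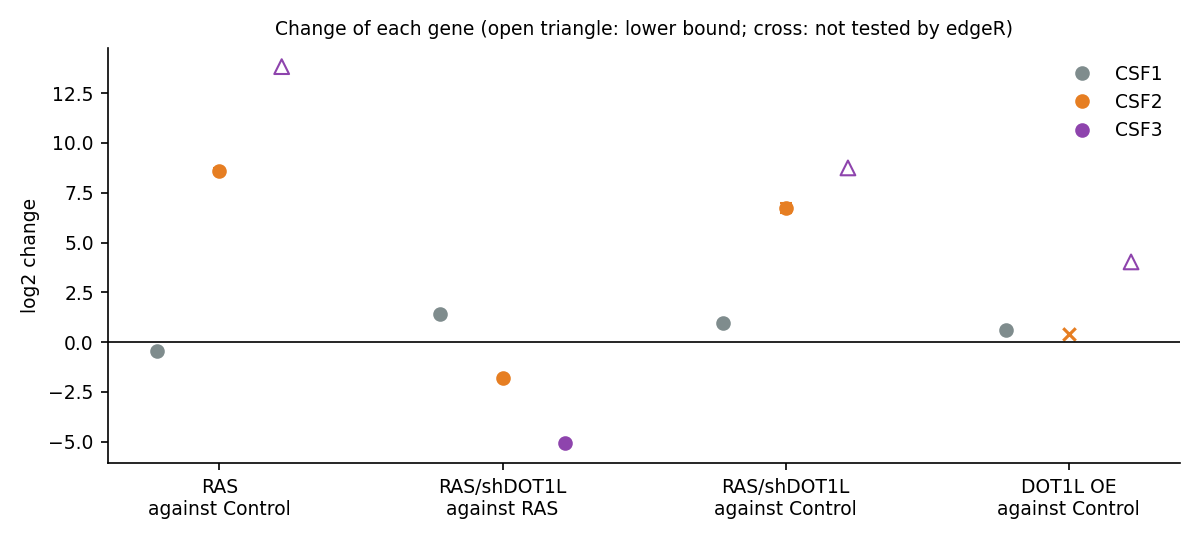
Log2 change of CSF1, CSF2 and CSF3 on the vertical axis in 4 comparisons on the horizontal axis. Filled points are edgeR estimates with SE bars, most of them smaller than the point, open triangles are lower bounds for CSF3 against 0 control counts, and the cross is the ratio of mean CPM of CSF2 in DOT1L OE against control, which edgeR did not test. In RAS/shDOT1L against RAS, CSF1 lies above 0 (1.44) while CSF2 (-1.82) and CSF3 (-5.07) lie below it.

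Divided by the length of the reference transcript (3994 bases for CSF1, 788 for CSF2 and 1504 for CSF3), the levels can be set beside each other as CPM per kilobase. The makeup of the family turned over between the groups. In control, CSF1 held 94.7% ± 3.70 of the summed level and CSF2 held 5.26% ± 3.70 (SD, n = 3). In RAS, CSF3 held 74.0% ± 0.46, CSF2 25.1% ± 0.47 and CSF1 0.872% ± 0.011. In RAS/shDOT1L, CSF2 led with 60.8% ± 1.95, and CSF1 held 20.3% ± 1.41 and CSF3 19.0% ± 0.58. CSF1 exceeded CSF3 in each of these 3 libraries, by a difference of the mean shares that was smaller than the SD of CSF1.

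In DOT1L OE the makeup was close to that of control, with CSF1 at 91.3% ± 1.90, CSF2 at 4.41% ± 1.29 and CSF3 at 4.25% ± 0.69. The summed level was 8.48 ± 0.76 CPM per kilobase for control and 13.4 ± 1.08 for DOT1L OE, against 680 ± 17.0 for RAS and 78.4 ± 2.07 for RAS/shDOT1L. With the merged exons of each gene as its length, an alternative added after seeing the data, CSF3 held 66.1% and CSF2 33.1% in RAS, and CSF2 held 68.2%, CSF1 17.4% ± 1.31 and CSF3 14.4% ± 0.52 in RAS/shDOT1L, in the same order, with CSF1 and CSF3 then apart by more than their SD. In DOT1L OE the share of CSF2 was then 5.72%. The deposited counts do not tell which transcript of a gene was made.

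**Figure D3:**
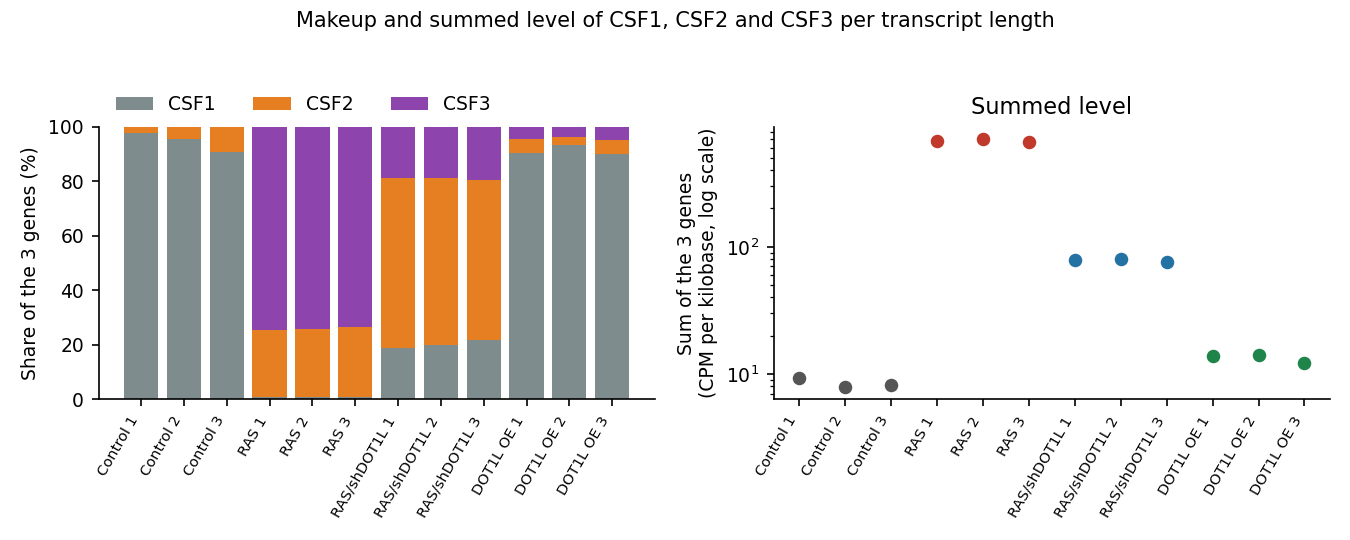
Left, share of CSF1, CSF2 and CSF3 in their summed CPM per kilobase (vertical axis, percent) for each of the 12 libraries, as stacked bars from 0 to 100. Right, the summed level in CPM per kilobase on a log axis, 1 point a library: CSF1 fills most of the bar in control and DOT1L OE, CSF3 in RAS (74.0% on average) and CSF2 in RAS/shDOT1L (60.8% on average).

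The receptors of these ligands were scarce. CSF3R, the receptor of CSF3, had 0 counts in all 12 libraries, which allows up to 0.0637 CPM in the group with the highest such limit. CSF2RA, the alpha chain for CSF2, had 3 counts over RAS/shDOT1L and 0 elsewhere, and CSF2RB, the shared beta chain, had 24 counts over RAS/shDOT1L (0.512 ± 0.18 CPM) and 0 elsewhere. Neither passed the filter for a test. The CSF1 receptor CSF1R was at 0.193 ± 0.12 CPM (control), 2.32 ± 0.32 (RAS), 2.15 ± 0.76 (RAS/shDOT1L) and 0.334 ± 0.16 (DOT1L OE).

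For CSF1R, RAS against control thus gave a log2 change of 3.56 ± 0.67 SE (edgeR adjusted p = 2.49e-05), and RAS/shDOT1L against RAS gave -0.10 ± 0.46 SE (edgeR adjusted p = 0.879). CSF1R is also a marker of myeloid cells, and the summed level of 12 myeloid markers was 7.44 to 9.38 CPM in control, 14.1 to 16.4 in RAS, 10.8 to 15.7 in RAS/shDOT1L and 6.56 to 7.24 in DOT1L OE. ITGAM, a defining myeloid marker, was at 0 in all groups, and TYROBP was at 0 in all but DOT1L OE, where it had 2 counts. In RAS against control 5 of the 12 markers were tested, of which 4 rose and 0 fell. Over all genes tested, 31.9% rose and 32.0% fell. The markers that rose included LAPTM5 (log2 change 5.59, edgeR adjusted p = 2.23e-07) and FCER1G (log2 change 3.93, edgeR adjusted p = 1.22e-04). CSF1R, LAPTM5 and FCER1G, at 11, 3 and 6 control counts, passed the filter through RAS alone, so this tally cannot be weighed against those shares. PTPRC, LYZ and AIF1, at 10, 7 and 4 counts in control and 2, 0 and 0 in RAS, did not pass the filter. The summed lymphocyte markers reached at most 0.970 CPM, and the part of such cells in the results was not tested.

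Among related receptors, KIT, the receptor of stem cell factor, fell in RAS from 10.4 to 0.697 CPM (-3.89 ± 0.30 SE on the log2 scale, edgeR adjusted p = 4.39e-13), and EPOR, the erythropoietin receptor, rose from 11.4 to 15.5 CPM (0.44 ± 0.16 SE on the log2 scale, edgeR adjusted p = 0.016). IL3RA, the alpha chain for interleukin 3, was at 0.176 CPM (control), 0.497 (RAS), 0.632 (RAS/shDOT1L) and 0.430 (DOT1L OE). IL5RA and FLT3 had 0 counts in all libraries. In RAS against control 3 of 10 receptors were tested, of which 2 rose and 1 fell (median log2 change 0.44, against -0.04 over all genes tested, where 64.0% were called). CSF1R was among these only through its RAS counts. In RAS/shDOT1L against RAS 4 were tested and 0 were called (median 0.14, against 0.03, where 52.7% of all genes were called).

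Of 12 other haematopoietic growth factors, 7 were tested in RAS against control, of which 2 rose and 3 fell (median log2 change -0.69, against -0.04 over all genes tested, of which 31.9% rose and 32.0% fell). IL11, a cytokine of the interleukin 6 family, was at 49.8 CPM (control), 501 (RAS), 189 (RAS/shDOT1L) and 315 (DOT1L OE). LIF, of the same family, was at 13.3, 234, 13.3 and 12.7 CPM in that order. LIF thus rose in RAS (log2 change 4.13 ± 0.09 SE, edgeR adjusted p = 6.38e-28) and fell by 4.12 on the log2 scale in RAS/shDOT1L, where its difference from control was 0.0031 ± 0.19 SE (edgeR adjusted p = 0.991). KITLG, or stem cell factor, fell from 26.2 to 11.9 CPM in RAS and to 5.68 in RAS/shDOT1L, and rose to 44.4 in DOT1L OE. In RAS/shDOT1L against RAS 1 of 7 rose and 3 fell (median -0.14, against 0.03, with 26.3% and 26.4% of all genes), and in DOT1L OE against control 3 of 7 rose and 0 fell (median -0.07, against 0.01, with 29.9% and 29.9%). IL3 and IL5 had 0 counts in all libraries.

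Among the genes listed as known inducers of CSF2 and CSF3, IL1B and IL1A changed most clearly in RAS against control. Their part in the CSF levels was not tested. IL1B was at 0.255 CPM (control), 2978 (RAS), 326 (RAS/shDOT1L) and 35.3 (DOT1L OE), and IL1A was at 0.310, 273, 56.9 and 1.28 CPM. TNF stayed between 0 and 0.776 CPM. IRAK1 and IRAK2, kinases that relay the interleukin 1 receptor, rose in RAS (log2 change 1.55 and 3.04) and fell with the hairpin (-0.89 and -2.19 on the log2 scale, all edgeR adjusted p under 0.05). Of 19 genes in this list, 15 were tested: 7 rose and 5 fell in RAS against control (median log2 change 0.05), 2 rose and 8 fell in RAS/shDOT1L against RAS (median -0.24), and 8 rose and 4 fell in DOT1L OE against control (median 0.31). Over all genes tested, 31.9% were called higher and 32.0% lower in the first of these comparisons (median -0.04), 26.3% and 26.4% in the second (median 0.03), and 29.9% and 29.9% in the third (median 0.01).

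Of 23 transcription factors known at promoters of these genes, 21 were tested in RAS against control, of which 16 rose and 3 fell, where 31.9% of all genes tested rose and 32.0% fell. Their median log2 change was 1.26, against -0.04 over all genes tested. CEBPB, a C/EBP factor that binds cytokine promoters, was at 81.9 CPM (control), 391 (RAS), 148 (RAS/shDOT1L) and 287 (DOT1L OE). JUNB, a member of AP-1, was at 28.6, 154, 128 and 62.6 CPM, and CEBPD was at 36.4, 142, 139 and 56.8 CPM.

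In RAS/shDOT1L against RAS, 22 of these factors were tested, of which 1 rose and 12 fell (median -0.39, against 0.03), where 26.3% of all genes rose and 26.4% fell. JUND, another AP-1 member, fell most clearly (log2 change -2.20, edgeR adjusted p = 6.79e-23), followed by CEBPB (log2 change -1.39, edgeR adjusted p = 4.58e-21) and ETS2, an ETS factor (log2 change -1.13, edgeR adjusted p = 9.74e-18). CEBPD gave -0.01 (edgeR adjusted p = 0.932). In DOT1L OE against control 13 of 22 rose and 4 fell (median 0.36, against 0.01, with 29.9% of all genes in each direction). Those that rose included CEBPB (log2 change 1.81) and ETS2 (log2 change 1.53). RELA gave 0.01 and RELB 0.02, neither past the test, while the mean levels of NFKB1 and NFKB2 lay above those of control. These 3 comparisons share libraries, and the list stands beside the CSF values with its part in them not tested.

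Messages of proteins that act on AU-rich elements were called in both directions. Of 17 such genes, all tested, 8 rose and 9 fell in RAS against control (median log2 change -0.24), 3 rose and 7 fell in RAS/shDOT1L against RAS (median -0.08), and 8 rose and 5 fell in DOT1L OE against control (median 0.30). The shares called over all genes were 64.0%, 52.7% and 59.9% in that order, with medians of -0.04, 0.03 and 0.01. ZC3H12A, an endonuclease that cuts cytokine mRNAs, was at 8.47 CPM (control), 241 (RAS), 108 (RAS/shDOT1L) and 10.4 (DOT1L OE). ZFP36L2, a decay factor of the tristetraprolin family, fell in RAS from 50.8 to 18.0 CPM, and KHSRP, which also promotes decay, rose from 228 to 309 CPM and was at 224 CPM in RAS/shDOT1L. HNRNPD, which binds AU-rich elements, was at 70.2, 102, 104 and 211 CPM over the groups in the order used above.

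The JAK-STAT relay stands behind these receptors. Of its 18 genes 17 were tested, of which 5 rose and 6 fell in RAS against control (median log2 change 0.04), 5 rose and 8 fell in RAS/shDOT1L against RAS (median -0.45, against 0.03 over all genes tested) and 9 rose and 3 fell in DOT1L OE against control (median 0.16, against 0.01). Genes called over the whole table were 31.9% higher and 32.0% lower, 26.3% and 26.4%, and 29.9% and 29.9% in these comparisons. SOCS3, the feedback inhibitor of CSF3R and related receptors, was at 15.4 CPM (control), 93.7 (RAS), 44.0 (RAS/shDOT1L) and 52.3 (DOT1L OE). The adaptor SHC1 was at 344, 747, 428 and 324 CPM. PTPN11, a phosphatase of the same pathway, fell in RAS (log2 change -0.64, edgeR adjusted p = 2.27e-12).

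**Figure D4:**
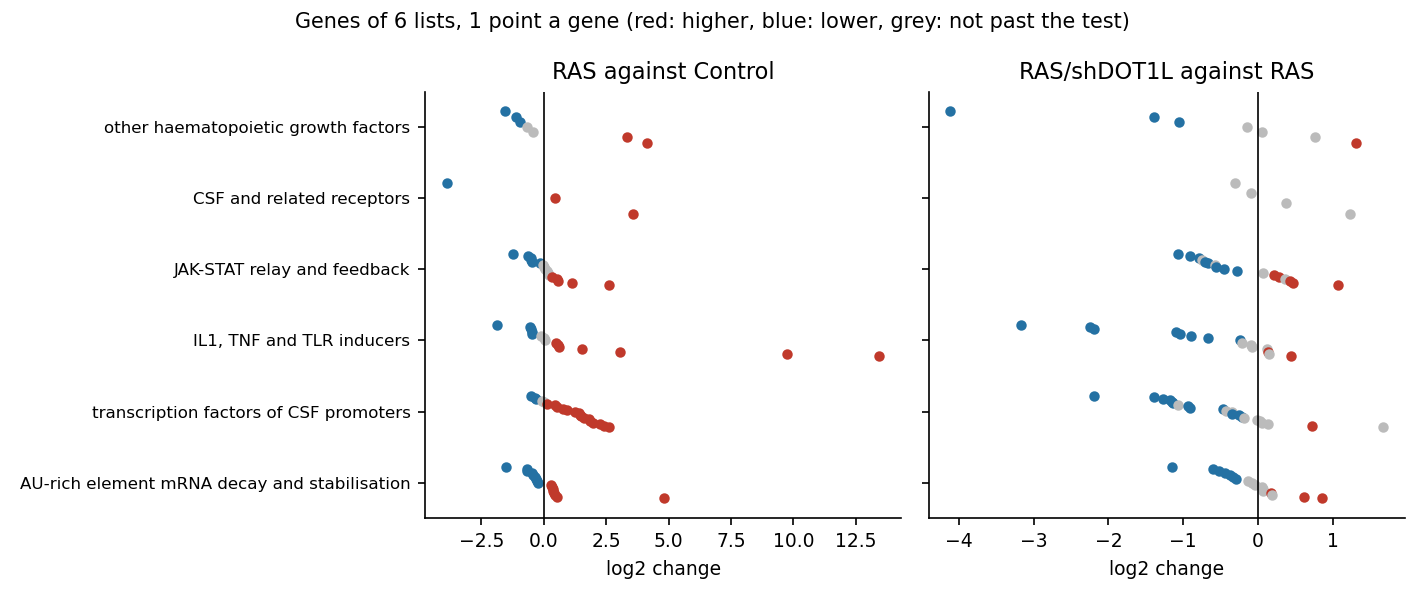
Log2 change (horizontal axis) of the genes tested in 6 lists around the colony-stimulating factors (rows), in RAS against control on the left and RAS/shDOT1L against RAS on the right, 1 point a gene. Red points were called higher, blue lower and grey neither: 16 of 21 transcription factors are red on the left, and 12 of 22 are blue on the right.

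The genes whose pattern over the 12 libraries was nearest to each member were found by the root mean square difference of log2 CPM centred on each gene's mean, among 13702 genes. Because the libraries fall into 4 groups, the measure mostly compares group levels. For CSF1 the nearest genes included RNF138, ERI1, MRPL13 and MAPK9 (difference 0.156 to 0.189). They were low in RAS and high in RAS/shDOT1L, for example MAPK9, a JNK kinase, at 27.7 CPM (control), 17.1 (RAS), 44.3 (RAS/shDOT1L) and 34.5 (DOT1L OE).

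For CSF2 they were LINC02154, IL1A, LCE2D, EHF and RPLP0P2 (difference 0.424 to 0.809), of which LCE2D, one of a family of near copies, and RPLP0P2, a pseudogene, may share reads with other genes. EHF, an ETS factor of epithelia, was at 0.176 CPM (control), 45.7 (RAS), 33.4 (RAS/shDOT1L) and 0.514 (DOT1L OE). For CSF3 they were CXCL1, IL1A, IL1B, CSF2 and CXCL8, at larger differences of 1.06 to 1.72. CXCL1, a neutrophil chemokine, was at 0.443 CPM (control), 866 (RAS), 84.9 (RAS/shDOT1L) and 7.08 (DOT1L OE), and CXCL8, another, at 5.87, 2710, 325 and 70.0 CPM. IL1A stood in both the CSF2 and the CSF3 set. With a prior count of 0.5 in place of 2, which weighs low counts more, the genes named for CSF1 were the same, while LCE3D took the place of LINC02154 for CSF2 and CST1 that of CSF2 for CSF3.

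**Figure D5:**
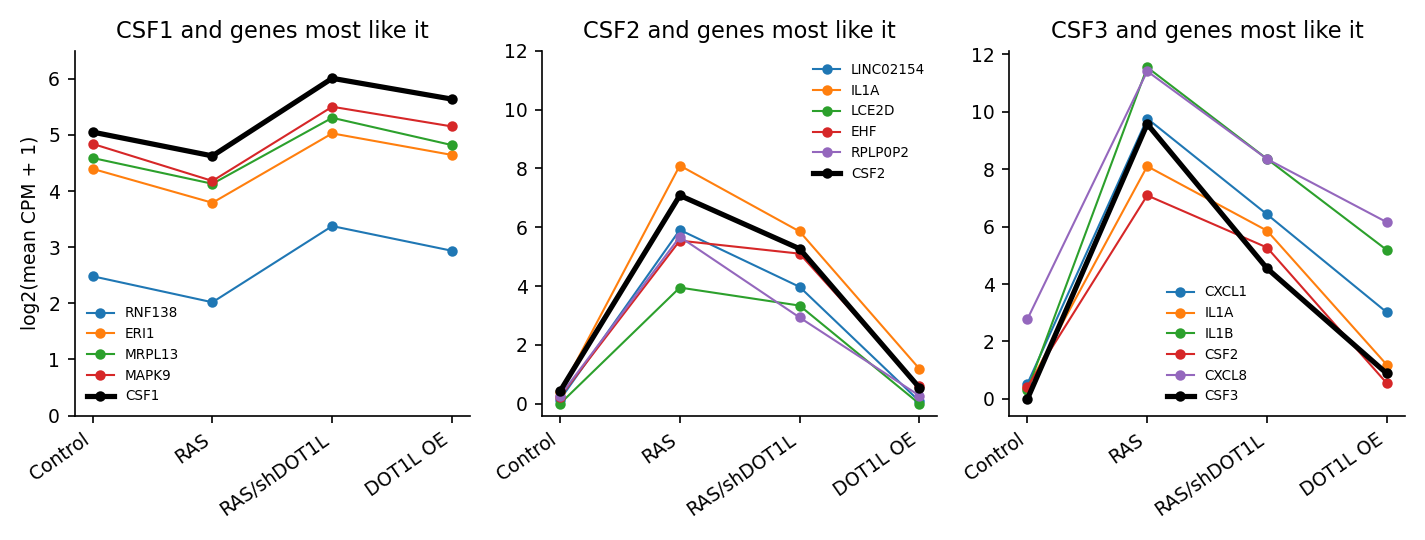
Log2(mean CPM + 1) on the vertical axis over the 4 groups on the horizontal axis for each colony-stimulating factor (thick black line) and genes of most similar pattern (thin lines, 4 or 5 a panel). CSF3 has the steepest drop from RAS (758 CPM) to RAS/shDOT1L (22.3 CPM) among the genes drawn in its panel.

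The neighbours of the members on their chromosomes had patterns of their own. IL3, a related cytokine 10.6 kb before CSF2, had 0 counts throughout, MEIKIN had 0 and ACSL6 at most 0.189 CPM. On the far side of CSF2, P4HA2, a collagen prolyl hydroxylase 114 kb away, was at 142 CPM (control), 348 (RAS), 381 (RAS/shDOT1L) and 144 (DOT1L OE). PDLIM4 was at 146, 477, 479 and 90.1 CPM, and SLC22A4 at 5.94, 19.9, 8.60 and 13.6 CPM. The log2 change of P4HA2 and PDLIM4 in RAS/shDOT1L against RAS was 0.15 and 0.02, against -1.82 for CSF2, while SLC22A4 fell as CSF2 did (log2 change -1.19, edgeR adjusted p = 3.83e-07).

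Near CSF3, MED24, a Mediator subunit gene on the other strand that ends 1.28 kb after CSF3, was at 61.3 CPM (control), 87.8 (RAS), 75.7 (RAS/shDOT1L) and 112 (DOT1L OE). PSMD3, a proteasome subunit 17.4 kb before CSF3, was at 173, 315, 267 and 264 CPM, and NR1D1, a nuclear receptor of the circadian clock, at 15.6, 33.1, 9.37 and 54.9 CPM. THRA was at 59.6, 47.1, 44.9 and 41.7 CPM, while GSDMA and LRRC3C stayed at or below 0.171 CPM. Near CSF1, AHCYL1, 53.8 kb after it, was at 105, 91.7, 151 and 126 CPM, and GSTM3 at 64.9, 68.9, 92.3 and 37.9 CPM. GSTM5 was at 1.82, 0.955, 2.17 and 3.55 CPM, and EPS8L3 at most at 0.108 CPM. Reads of GSTM3 and GSTM5, members of a family of near copies, may be shared.

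In RAS/shDOT1L against RAS, AHCYL1 was higher (log2 change 0.74, edgeR adjusted p = 1.34e-11), as CSF1 was, and NR1D1 lower (log2 change -1.80, edgeR adjusted p = 1.64e-12), as CSF3 was, while MED24 and PSMD3 gave -0.20 and -0.22. No neighbour named here with a test fell as far as CSF3.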

How the data were processed

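Per the labels and the study's methods, poly(A) RNA of IMR90 cells was sequenced in paired ends, and alignment to GRCh38 was by STAR (2.6.1 in the submitters' processing notes, which also name DESeq2 2). The authors deposited raw counts, whole numbers for each Ensembl ID. The strand setting is not given in the sources used here. The counts were joined to symbols (93.5% of IDs matched a name) and tested in edgeR 4.0.16 (R 4.3.3) with filterByExpr, TMM factors and the two-sided quasi-likelihood F test, each comparison on its own 6 libraries. Folds against a group at 0 counts are lower bounds against 3 counts over the group. Ratios within libraries were tested by exact permutation. Alternatives were DESeq2 size factors, library size only, other filters, limma-voom (limma 3.58.1), DESeq2 1.42.0 with its Wald test, a fit over all groups, a replicate block, a GC offset and each library left out. The code was tested on simulated data. Within groups, chi-square per degree of freedom was 4.33 to 7.87, so no library was a copy. The members and 11 gene lists (149 entries, 147 with an ID) were chosen with earlier results of these data known. Named were the members, every receptor, up to 3 genes a list with the smallest p in RAS against control or RAS/shDOT1L against RAS, the 5 genes most like each member and 3 neighbours on each side. Some genes that this rule names are not reported here. DOT1L and HRAS were named to check the labels. Among genes named beyond this rule, TNF, RELA, RELB, REL, NFKB1, NFKB2, HNRNPD and IL5 were chosen after their values were seen. So were the markers ITGAM, TYROBP, PTPRC, LYZ, AIF1, CDH5 and SFTPC. The marker lists were fibroblast, myeloid, lymphocyte, endothelial and epithelial.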

Additional observations from a re-analysis of the deposited data

How the results depend on the processing

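Of 260 alternatives over 18 member results, 259 kept direction and call. The exception was CSF1 in RAS/shDOT1L against DOT1L OE with library size as the only scaling, at a log2 change of 0.18 (edgeR adjusted p = 0.073; 0.28 to 0.42 over fits that left out 1 library, all past the test); the cause was not tested. All 90 counts of called genes stayed within 1.5 times. Of 63 alternatives of the within-library ratios, 61 kept their direction, and the log2 ratio of CSF2 to CSF1 in DOT1L OE against control, -0.10 over all libraries, ran from -0.58 to 0.39 with 1 library left out (0.16 without DOT1L OE library 2 and 0.39 without control library 3), on 3 to 12 counts of CSF2 a library. CSF3 in DOT1L OE against control gave no value when 3 libraries had to reach 1 CPM. CSF2 in that comparison had a value under only 6 alternatives, which are counted among the 259. Its main result was an exact permutation test that cannot go below p = 0.1 with 3 against 3, so it could not have been called. Merged exon lengths moved the shares per length of CSF2 in DOT1L OE to 5.72%, of CSF2 and CSF3 in RAS to 33.1% and 66.1%, and of CSF1, CSF2 and CSF3 in RAS/shDOT1L to 17.4%, 68.2% and 14.4%. Replicate numbers did not pair the libraries: deviations of same-numbered libraries correlated at -0.019 to 0.0273. With the replicate number as a block, edgeR called 8435 genes in RAS against control in place of 8670, the log2 change of CSF3 in RAS/shDOT1L against RAS was -5.07, and no member call changed. Depth limits CSF2 in control and DOT1L OE (20 and 28 counts), CSF3 in DOT1L OE (52 counts) and the receptors.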

Other observations

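Markers of further cell types moved between the groups. The summed level of the 7 endothelial markers with an ID was 64.2 to 70.6 CPM in control, 75.4 to 82.9 in RAS, 32.4 to 36.5 in RAS/shDOT1L and 138 to 151 in DOT1L OE, with CDH5 at 0 in all but RAS/shDOT1L. The 8 epithelial markers summed to 117 to 122 CPM in control, 14.7 to 21.6 in RAS, 50.2 to 63.1 in RAS/shDOT1L and 41.9 to 45.4 in DOT1L OE, with SFTPC at 0 in every group. Each sum was mostly 1 gene. TEK was at 67.1 CPM (control), 61.1 (RAS), 23.5 (RAS/shDOT1L) and 129 (DOT1L OE), and KRT19 at 115, 12.4, 48.9 and 34.4 CPM. Other members moved otherwise in RAS against control: TIE1, CLDN5 and KDR rose (log2 change 4.98, 3.96 and 2.22), and so did CLDN4 (1.37). The lowest sums of the lymphocyte list were 0.0639 CPM in RAS and 0.151 CPM in control. Their part in the levels of the colony-stimulating factors was not tested.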
